A study of Rattus norvegicus with 3 samples.

Results

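The genes described here encode the proteasome, taken as every rat gene whose symbol starts with Psma, Psmb, Psmc, Psmd or Psme and whose RefSeq accession stands on the array. This gave 43 of the 15168 genes with a symbol, read by 47 probes. Of the 43, 41 are subunits, assembly chaperones or activators. The other two, Psmc3ip, a recombination factor, and Psme3ip1, a protein that binds the activator Psme3, share only the prefix and were kept out of the class summaries. The core subunit Psmb11 and the lid subunit Psmd11 had no matched probe and were not analysed here. RefSeq lists 94 rat symbols with these prefixes, of which 46 are pseudogenes. Probe sequences were not used here, so signal shared between a gene and a pseudogene copy cannot be told apart.

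RNA came from 3 muscles of male rats aged 12 weeks of the strain the labels spell Wistar Honnover, and each was read on 1 one-colour Agilent array. The denervated soleus was taken 28 days after the left sciatic nerve had been cut over about 5 mm at the level of the buttock. The normal plantaris, a fast calf muscle, and the normal soleus, its slow neighbour, came from rats with no treatment, and no sham operation is named. The sources used here do not give how many animals stand behind an array, so every fold below is a difference between single arrays, with no test. The normal plantaris and normal soleus arrays share a slide, whereas the denervated array lies on another, so denervation and slide cannot be told apart.

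The proteasome is the chamber in which cells break down proteins tagged with ubiquitin. Its core is a stack of rings, an outer alpha ring made of Psma subunits and an inner beta ring made of Psmb subunits that holds the cutting sites. A cap sits on the core. The base of the cap holds the Psmc ATPases, which unfold the substrate, and the lid removes the ubiquitin chain. Under interferon, Psmb8, Psmb9 and Psmb10 replace the cutting subunits Psmb5, Psmb6 and Psmb7 to form the immunoproteasome, and the activator PA28, built of Psme1 and Psme2, can dock in place of the cap. Skeletal muscle that loses its nerve is a classic setting for ubiquitin-dependent protein loss, in which the muscle ubiquitin ligases Trim63 and Fbxo32 are known to act.

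Promoter sequence is shown for the immune subunits, for PA28 and for 2 of the constitutive counterparts, because the comparisons below set the immune genes against the constitutive ones. The lines run 5′ to 3′ on the gene's strand, from 90 bases before the annotated start to 30 bases after it, as RefSeq gives them on build GRCr8. Psmb9 lies at chr20:4668910-4669029 on the plus strand, Psmb8 at chr20:4657002-4657121 on the minus strand and Psmb10 at chr19:50743263-50743382 on the minus strand. Psme1 lies at chr15:33038881-33039000 on the plus strand and Psme2 at chr15:33052722-33052841 on the minus strand. Capitals in the first 5 mark GAAANNGAA, the letters at the core of the interferon-stimulated response element, read on either strand.
Psmb9: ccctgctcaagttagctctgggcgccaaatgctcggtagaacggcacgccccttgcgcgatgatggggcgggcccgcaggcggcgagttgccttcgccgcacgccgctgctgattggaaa
Psmb8: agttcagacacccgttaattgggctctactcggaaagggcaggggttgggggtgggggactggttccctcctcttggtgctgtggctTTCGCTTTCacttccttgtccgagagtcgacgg
Psmb10: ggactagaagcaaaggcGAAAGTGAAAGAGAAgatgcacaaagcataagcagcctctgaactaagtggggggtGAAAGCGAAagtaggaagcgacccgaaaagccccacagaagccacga
Psme1: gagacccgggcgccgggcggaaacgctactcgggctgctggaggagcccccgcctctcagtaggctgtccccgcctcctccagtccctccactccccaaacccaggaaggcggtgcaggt
Psme2: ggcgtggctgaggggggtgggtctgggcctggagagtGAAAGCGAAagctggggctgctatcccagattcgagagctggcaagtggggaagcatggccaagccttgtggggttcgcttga
Capitals in the next 2 mark the core of the antioxidant response element, TGACNNNGC, which the stress factors Nfe2l1 and Nfe2l2 are known to bind. Psmb5 lies at chr15:32047350-32047469 on the minus strand and Psmb6 at chr10:55737798-55737917 on the plus strand.
Psmb5: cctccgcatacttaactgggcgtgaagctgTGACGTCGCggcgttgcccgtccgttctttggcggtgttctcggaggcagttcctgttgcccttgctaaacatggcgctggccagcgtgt
Psmb6: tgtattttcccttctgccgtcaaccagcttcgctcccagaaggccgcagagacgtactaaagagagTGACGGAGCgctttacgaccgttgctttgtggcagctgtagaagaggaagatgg

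Of the 43 genes, 39 had a promoter window of 300 bases, and Psma7, Psmd6, Psmd12 and Psmd14 had none in the table. The motifs were picked after the array values had been seen, and both strands were searched. The interferon element core was in the windows of Psmb8, Psmb10 and Psme2, that is 3 of the 5 immune and PA28 genes. Psmb10 held it at 3 places, of which 2 overlap. Among the 26 core, base and lid genes with a window it was in 4, Psma4, Psmb2, Psmb3 and Psmd7. It was in 9.71% of the 33469 promoters of the table. The letters were not in the windows of Psmb9 or Psme1. The antioxidant element core was in 8 of the 39 windows, those of Psma3, Psmb2, Psmb5, Psmb6, Psmd1, Psmd3, Psmd9 and Psme4, against 12.1% of all promoters, and in 0 of the 5 immune and PA28 windows. The CCAAT box, a common promoter element, was in 21 of the 39 windows (53.8%), against 37.5% of all promoters. A match describes the letters and is no evidence of binding.

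Levels are given as the log2 processed signal minus the 75th percentile of that array's non-control spots, so 0 is that percentile. Each level is that of 1 probe and is compared only with itself on another array. A fold is the difference of 2 such levels, so 1 unit is 2-fold and 0.585 is 1.5-fold. Its error (±) is the one the scanner software gives, with a median of 0.204 for these genes, and covers measurement only. Repeat spots of a probe were closer than that, with a median SD of 0.053 on the denervated, 0.046 on the plantaris and 0.037 on the normal soleus array. Between 64.19% and 66.98% of all probes were well above background, and so were the probes of all members on all 3 arrays except Psma8. Tissue identity was read from Myh7, the slow myosin, which stood at 7.52 in denervated soleus, 6.41 in plantaris and 9.03 in normal soleus, and from Myh4, the fastest limb myosin, at 1.96, 7.88 and 0.66 in the same order. Actn3, the actinin of fast fibres, stood at 4.80 in denervated soleus, 9.24 in plantaris and -0.35 in normal soleus. Ckm, the creatine kinase of muscle, stood at 6.92, 9.38 and 8.40 in that order of arrays.

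**Figure D1:**
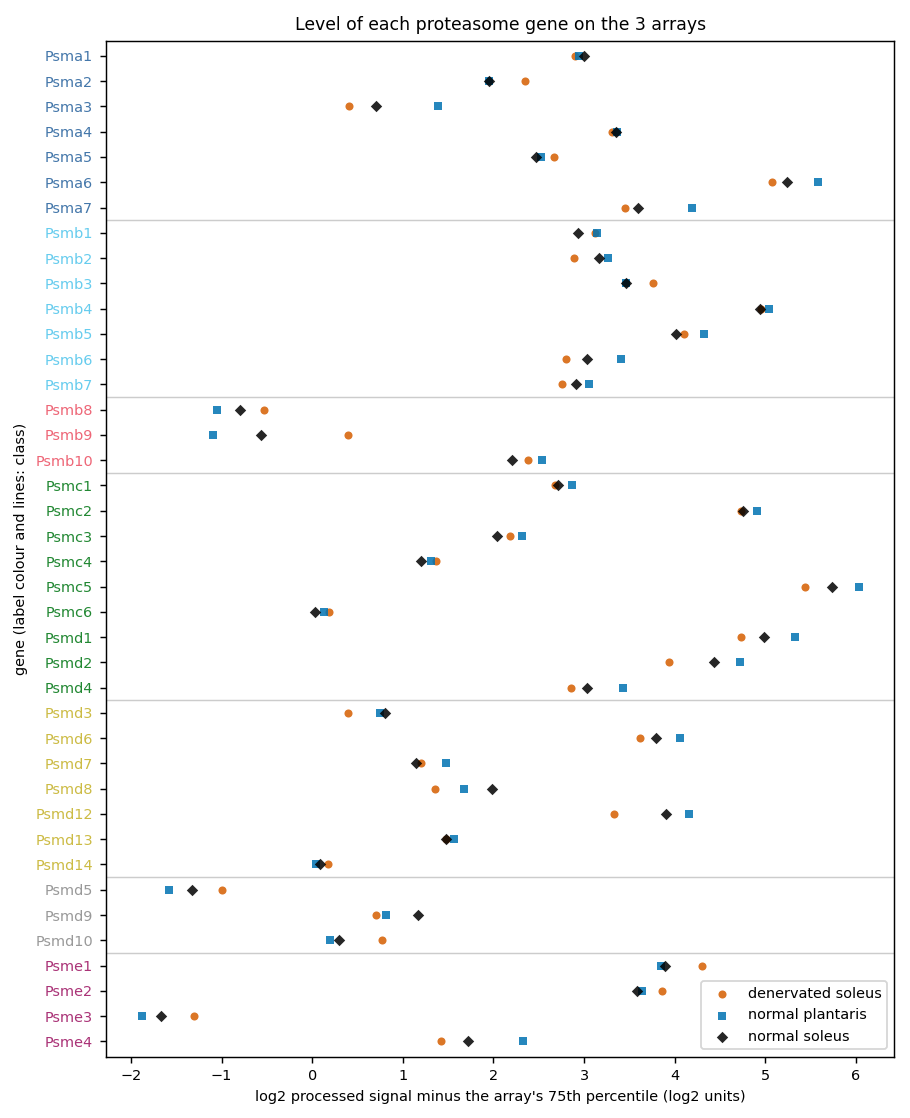
Level of 40 proteasome genes on the 3 arrays, as log2 processed signal minus the array's 75th percentile, with genes grouped by class (horizontal lines) and each marker the mean of the repeat spots of 1 probe. Under this scaling 21 of the 30 core, base and lid genes have the plantaris marker rightmost. Psmb9 has its denervated marker at 0.40 against -0.57 in normal soleus. Psma8, whose probes were near background, is left out.

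The first comparison set denervated against normal soleus. Psma8 was above background on neither array, which left 42 genes measured. Of these, 1 was at least 1.5-fold higher in denervated soleus, Psmb9, and 1 at least 1.5-fold lower, Psmd8. Over all 11318 genes tested the shares were 19.8% higher and 22.8% lower. None was 2-fold higher or lower, where the shares over all genes were 8.73% and 13.4%. The median fold of the 42 was -0.01, against 0.02 for all genes, and their middle 50 percent lay between -0.21 and 0.19, against -0.51 and 0.46 for all genes. By the looser mark of the scanner error, 10 were higher, 11 lower and 21 within it, where 35.9% of all genes were higher and 35.2% lower. Among genes with a mean level at or above the 75th percentile, a background chosen after the values were seen, 10.9% passed 1.5-fold upward and 23.5% downward.

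The constitutive rings differed little and had no common direction. In the alpha ring, which gates entry to the core, the 7 folds ran from -0.29 for Psma3 to 0.40 for Psma2 with a median of -0.10. Psma2 stood at 2.35 in denervated and 1.95 in normal soleus. Psma3 stood at 0.41 in denervated and 0.70 in normal soleus, with the 2 denervated spots at 0.30 and 0.52. In the constitutive beta ring the 7 folds ran from -0.27 for Psmb2 to 0.31 for Psmb3 with a median of 0.01. The structural subunit Psmb3 stood at 3.76 in denervated and 3.46 in normal soleus, and Psmb2 at 2.89 in denervated and 3.16 in normal soleus.

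The subunits with a cutting site showed folds near the scanner error. Psmb5, which cuts after hydrophobic residues, stood at 4.10 in denervated and 4.01 in normal soleus. Psmb6, which cuts after acidic residues, stood at 2.80 in denervated and 3.03 in normal soleus, a fold of -0.23 ± 0.20. Psmb7, which cuts after basic residues, stood at 2.76 in denervated and 2.91 in normal soleus. The signs of Psmb6 and Psmb7 depended on the scaling, at 0.01 and 0.10 with the authors' values.

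In the base, which unfolds and threads the substrate, 6 of 9 folds were below 0, with a median of -0.03. The lowest was that of Psmd2, a scaffold on which ubiquitin carriers dock, at 3.94 in denervated and 4.43 in normal soleus (-0.49 ± 0.20). The highest was that of the ATPase Psmc4, at 1.37 in denervated and 1.20 in normal soleus. In the lid 5 of 7 folds were below 0, with a median of -0.17. Psmd8, a late-joining lid subunit, stood at 1.36 in denervated and 1.98 in normal soleus (-0.62 ± 0.20), and its repeat spots lay at 1.32 and 1.4 against 1.98 and 1.98. That fold was under 1.5-fold with normexp background, quantile normalization and the authors' values, the smallest being -0.38. Psmd12, a structural lid subunit, stood at 3.33 in denervated and 3.90 in normal soleus (-0.56 ± 0.20), just inside the 1.5-fold mark. The highest lid fold was that of Psmd14, the enzyme that cuts off the ubiquitin chain, at 0.17 in denervated and 0.09 in normal soleus.

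Over the 30 constitutive core, base and lid genes, 11 folds were above 0 and 19 below, with a median of -0.07. The split turned with the scaling: 24 were above 0 with quantile normalization (median 0.15) and 22 with the authors' values (median 0.17), where the median of all genes was itself 0.26. Set against the median of all genes, the 30 stood at -0.09 as reported and with the authors' values, and at 0.07 with quantile normalization. The constitutive particle therefore has no direction in this comparison that holds under every scaling.

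The immune subunits all had folds above 0 in denervated soleus, with a median of 0.26. Psmb9, which replaces Psmb6, stood at 0.40 in denervated and -0.57 in normal soleus. Its 2 spots lay at 0.39 and 0.41 on the denervated array, against -0.58 and -0.56 on the normal one, and the fold was 0.97 ± 0.20, just under 2-fold. Psmb8, which replaces Psmb5, stood at -0.53 in denervated and -0.80 in normal soleus (0.26 ± 0.20). Psmb10, which replaces Psmb7, stood at 2.38 in denervated and 2.20 in normal soleus (0.18 ± 0.20), within the scanner error. Over 8 other ways of processing, Psmb9 ran from 0.89 to 1.22, Psmb8 from 0.13 to 0.51 and Psmb10 from 0.17 to 0.43.

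Each immune subunit was set against the constitutive subunit it replaces, which cancels any factor common to an array. The fold of Psmb9 exceeded that of Psmb6 by 1.20 ± 0.29 in denervated over normal soleus, and by 0.99 to 1.20 across the alternatives. The excess was 0.32 ± 0.29 for Psmb10 over Psmb7. It was 0.18 ± 0.29 for Psmb8 over Psmb5, within the error, and turned to -0.20 with quantile normalization. Of the 3 pairs, 1 thus differed by well over its measurement error.

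The activators were not alike. Psme1, the alpha chain of PA28, stood at 4.30 in denervated and 3.89 in normal soleus (0.41 ± 0.20), and Psme2, its beta chain, at 3.86 in denervated and 3.58 in normal soleus (0.28 ± 0.20). Neither fold reached 1.5-fold, except with quantile normalization, where they were 0.75 and 0.59, and for Psme1 with the authors' values. Psme3, the nuclear activator also called PA28 gamma, stood at -1.30 in denervated and -1.67 in normal soleus (0.37 ± 0.21). Psme4, the large single-chain activator PA200, went the other way at 1.42 in denervated and 1.72 in normal soleus (-0.30 ± 0.20). Its second probe, at 0.83 in denervated and 1.46 in normal soleus, gave -0.62 and so passed 1.5-fold, whereas the brighter one did not.

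The 3 chaperones that assemble the base were also split. Psmd10, also known as the oncoprotein gankyrin, stood at 0.77 in denervated and 0.30 in normal soleus (0.47 ± 0.20). Psmd5 stood at -1.0 in denervated and -1.33 in normal soleus (0.33 ± 0.21). Psmd9 stood at 0.70 in denervated and 1.17 in normal soleus (-0.48 ± 0.20), but its second probe gave -0.09. The prefix matches Psmc3ip and Psme3ip1 had folds of 0.07 and -0.06.

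**Figure D2:**
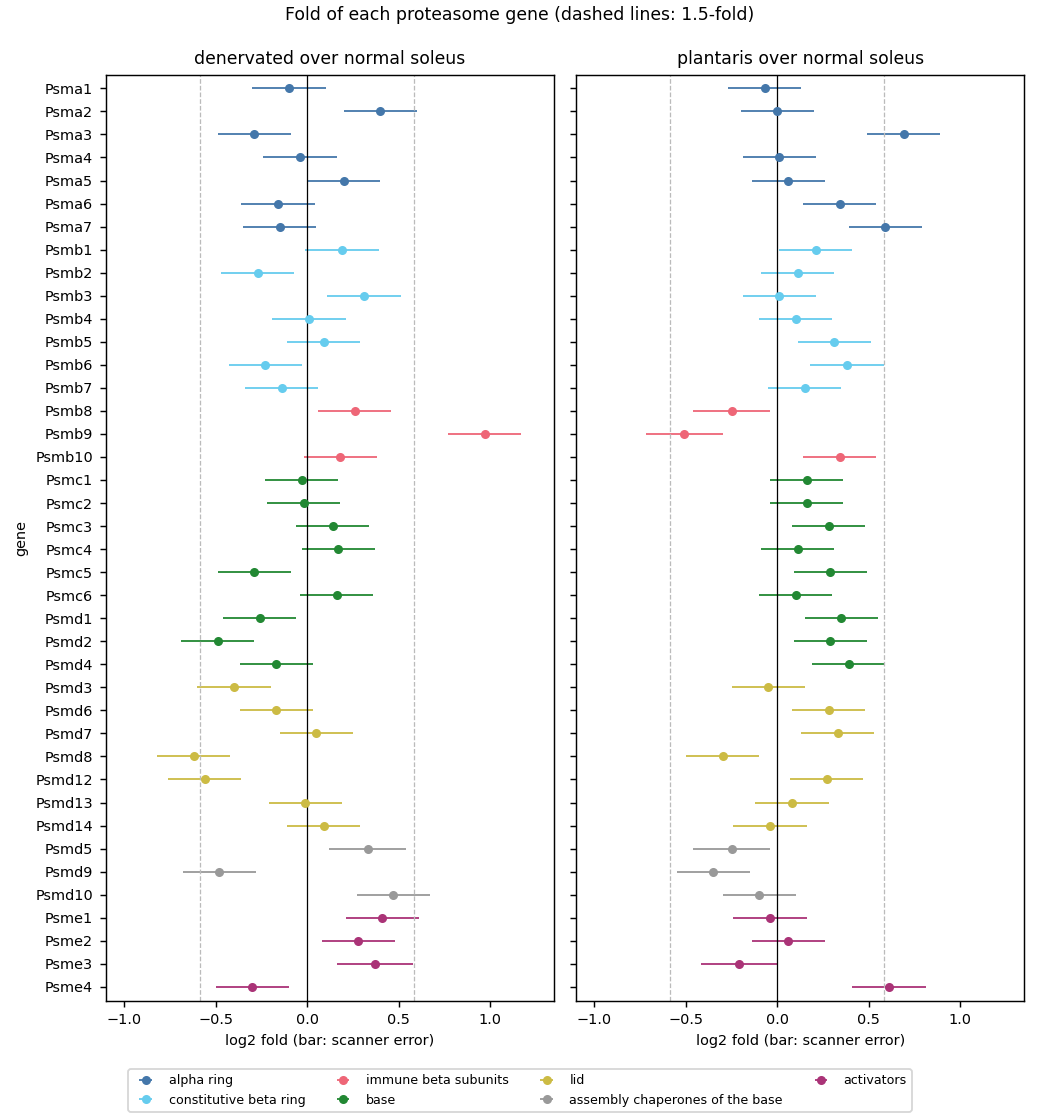
Log2 fold of 40 proteasome genes in denervated over normal soleus (left) and plantaris over normal soleus (right), coloured by class, with bars for the scanner error and dashed lines at 1.5-fold. Psmb9 is the rightmost point on the left at 0.97 and the leftmost on the right at -0.51. The base genes lie between -0.49 and 0.17 on the left and between 0.10 and 0.39 on the right.

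Immune subunits and PA28 are induced by interferon, so a list of 19 interferon and antigen processing genes was read beside them. Of 16 measured in denervated over normal soleus, 10 were at least 1.5-fold higher and 0 lower (19.8% and 22.8% of all genes). The list median of 0.69 ran from 0.32 with normexp background to 0.93 with the authors' values. B2m, the light chain of class I molecules, stood at 5.29 in denervated and 4.51 in normal soleus (0.79). The peptide transporter chains Tap1 and Tap2 had folds of 0.73 and 0.75, and Tap1 gave 0.22 with normexp background. Irf7, an interferon regulator, had 0.91, and Tapbp, which loads peptides, 0.89. Irf8, a regulator in immune cells, was above background on the denervated array only, and its log2 fold of at least 1.03 ± 1.26 turned to -0.05 with normexp background. Irf1, an interferon regulator as well, had 0.30.

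In whole muscle, more cells of a type and more RNA per cell cannot be told apart, so markers of cells that carry much immunoproteasome were read too. Of 15 macrophage markers, 12 had folds above 0 in denervated over normal soleus, with a median of 0.26. Of the same 15 markers, 3 were at least 1.5-fold higher, where 19.8% of all genes were. Their summed signal, in units of the array's 75th percentile, was 68.8 in denervated and 63.7 in normal soleus. Ptprc, found on all white blood cells, had 0.61, and the macrophage marker Cd68 had -0.35. Of 9 lymphocyte markers with a probe, 4 were measured, with folds from -0.99 for Cd3d to 0.60 for Nkg7, and the defining markers Cd3e, Cd8a, Cd79b and Gzmb were not well above background on any array. The summed lymphocyte signal was 0.670 in denervated and 0.778 in normal soleus. Other marker sums differed more, though a sum is led by its brightest genes. The summed signal of 6 measured fat cell markers and Lep was 76.0 in denervated and 23.5 in normal soleus. That of 9 fibroblast markers was 246 and 106 and that of 8 endothelial markers 7.99 and 14.0, in the same order. The 6 fat cell folds ran from 0.04 for Cidea to 3.65 for Adipoq. All 9 fibroblast folds were above 0, from 0.53 for Lum to 2.77 for Comp, with a median of 0.89. Of these 9, 8 were at least 1.5-fold higher, where 19.8% of all genes were. The 8 endothelial folds ran from -2.3 for Cdh5 to 0.22 for Tek. Of 11 muscle fibre markers 3 were at least 2-fold higher in denervated soleus (8.73% of all genes) and 5 at least 2-fold lower (13.4%). The higher ones were Actn3 (5.15), Myh1 (4.43) and Myh4 (1.30). The lower ones were Acta1 (-2.44), Myh7 (-1.5), Ckm (-1.48), Des (-1.21) and Tnni1 (-1.2). The median of the 11 was -0.52. The part of these cells in the folds of Psmb9 and PA28 was not tested.

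Factors that build, bind or switch on the proteasome had a median of -0.13 over 12 measured of 20 listed, which turned to 0.11 with the authors' values. At least 1.5-fold higher in denervated soleus was Nfe2l1, the transcription factor of proteasome genes, at 0.74 in denervated and 0.06 in normal soleus (0.68). At least 1.5-fold lower was Psmf1, an inhibitor of the core, at 0.81 in denervated and 1.41 in normal soleus (-0.60). Over all genes, 19.8% were at least 1.5-fold higher and 22.8% lower. Psmf1 and Adrm1 were read from 1 spot on each array. Nfe2l2, the related oxidative stress factor, had 0.28. Pomp, which matures the core, had -0.17, the assembly chaperone Psmg2 -0.43, the ubiquitin receptor Adrm1 -0.37 and the bound deubiquitinase Usp14 -0.10. The assembly chaperone Psmg1 had no matched probe and was not analysed here.

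Upstream of the proteasome, 18 measured genes of 22 for ubiquitin and its E1 and E2 enzymes had a median of -0.18, which turned to 0.07 with quantile normalization. Of these, 3 were at least 1.5-fold higher and 4 lower in denervated soleus, where the shares over all genes were 19.8% and 22.8%. Ubb, which encodes ubiquitin, had -0.15. The E2 enzymes Ube2b and Ube2d1 had -1.23 and 0.85, and Uba1, the main E1 enzyme, had -0.27. Ube2d1 was read from 1 spot on each array. The 11 shuttles and unfoldase genes had a median of -0.08, or 0.16 with the authors' values, led by Ufd1 (0.55), Ubqln2 (0.48) and Faf2 (0.36). Vcp, the unfoldase, had -0.12. Both muscle ligases had folds below 0 in denervated over normal soleus, short of 1.5-fold. Trim63 stood at -0.09 in denervated and 0.44 in normal soleus (-0.53), and Fbxo32 at -0.74 in denervated and -0.38 in normal soleus (-0.36).

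**Figure D3:**
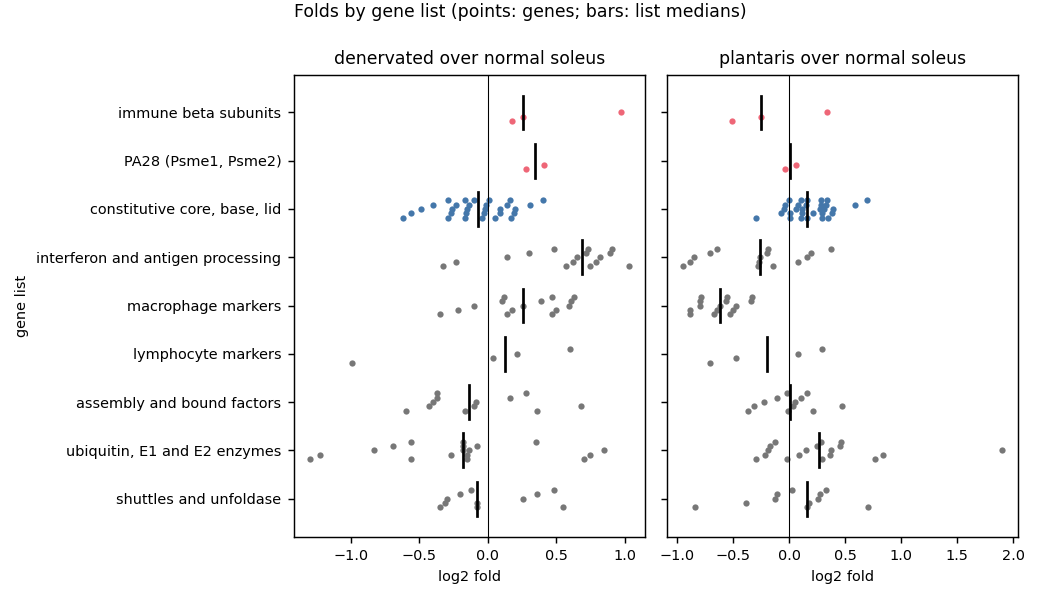
Log2 folds by gene list in denervated over normal soleus (left) and plantaris over normal soleus (right), with a point per measured gene and a bar at the list median. The interferon list has its bar at 0.69 on the left and -0.26 on the right, and the macrophage list at 0.26 and -0.62, while the 30 core, base and lid genes have theirs at -0.07 and 0.16.

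The second comparison set the fast plantaris against the slow soleus, both normal and on 1 slide. It shares the normal soleus array with the first, so a gene's folds in both are not independent. Of 43 genes measured, 4 passed 1.5-fold upward in plantaris and 0 downward, where over all 11015 genes tested 13.0% were higher and 12.7% lower. The 4 were Psma8, Psma3, Psme4 and Psma7, and with other processing the count was as low as 1. Psma8 was the 1 gene of the 43 past 2-fold (5.71% of all genes), with 0 lower (6.11%). By the scanner error, 17 were higher, 5 lower and 21 within it, against 30.9% and 27.7% of all genes higher and lower. The median of the 43 was 0.11, against 0.02 for all genes, and was 0.00 with the authors' values, where that of all genes was -0.09.

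The core, base and lid leaned to plantaris by small amounts. Of 30 folds, 26 were above 0, with a median of 0.16. Every setting kept that median above 0, from 0.05 with the authors' values to 0.23 with centring on the median. The number of folds above 0 ran from 18 to 28. Over all 11015 genes tested, 5745 folds were above 0, with a median of 0.02, and 23 of the 30 were above that median. By the scanner error, 14 of the 30 were higher, 1 lower and 15 within it. Among all genes, 30.9% were higher and 27.7% lower by that error. As reported, 21 of the 30 genes were highest on the plantaris array, 6 on the denervated and 3 on the normal soleus array. Their lowest level was on the denervated array for 19, on plantaris for 1 and on normal soleus for 10. This order depended on the scaling. In denervated soleus over plantaris, 19 of the 30 folds were above 0 with the authors' values and 18 with quantile normalization.

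All 9 base folds lay above 0 in plantaris over normal soleus, with a median of 0.28. They ran from 0.10 for the ATPase Psmc6 to 0.39 for the ubiquitin receptor Psmd4. By the scanner error, 5 of the 9 were higher and 4 within it, where 30.9% of all genes were higher. With the authors' values 7 of the 9 were above 0, and with quantile normalization 8. Psmd4 stood at 3.43 in plantaris and 3.03 in normal soleus, and at 2.86 in denervated soleus. Psmc6 stood at 0.13 in plantaris and 0.03 in normal soleus, with 0.19 in denervated soleus. Set against the median of all genes under the same setting, all 9 were above it as reported, with normexp background and with the authors' values, and 8 with quantile normalization.

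In the alpha ring, Psma3 stood at 1.39 in plantaris and 0.70 in normal soleus (0.69 ± 0.20), and Psma7 at 4.19 in plantaris and 3.60 in normal soleus (0.59 ± 0.20). Psma7 just passed 1.5-fold, and fell short at 0.46 with quantile normalization, and Psma3 gave 0.58 with the authors' values. The lowest alpha fold was that of Psma1, at 2.94 in plantaris and 3.0 in normal soleus (-0.07), with 2.90 in denervated soleus. All 7 constitutive beta folds were above 0, from 0.01 for Psmb3 to 0.38 for Psmb6, with a median of 0.15. With the authors' values or quantile normalization, 5 of 7 stayed above 0. By the scanner error, 3 of the 7 were higher and 4 within it. Psmb6 stood at 3.41 in plantaris and 3.03 in normal soleus, Psmb5 at 4.32 and 4.01, and Psmb7 at 3.06 and 2.91, in the same order of muscles. Psmb3 stood at 3.46 on both arrays.

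The lid was mixed, with 4 of 7 folds above 0 and a median of 0.08. The highest was that of Psmd7, a structural partner of Psmd14, at 1.48 in plantaris and 1.15 in normal soleus (0.33 ± 0.20), with 1.20 in denervated soleus. The lowest was that of Psmd8, at 1.68 in plantaris and 1.98 in normal soleus (-0.30 ± 0.20). The 3 base chaperones were all below 0 in plantaris, with Psmd9 at 0.82 against 1.17 (-0.35 ± 0.20), Psmd5 at -1.58 against -1.33 (-0.25 ± 0.21) and Psmd10 at 0.20 against 0.30 (-0.10 ± 0.20), plantaris first. The second probe of Psmd9 gave 0.11. Psmc3ip and Psme3ip1 had folds of -0.11 and -0.16.

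Psma8, the alpha subunit known from testis, was read by 3 probes with 1 spot each. One probe was above background on the plantaris array only, at -4.76, against -6.81 in denervated and -6.91 in normal soleus. Its log2 fold of plantaris over normal soleus was at least 1.56 ± 1.01. The other probes were above background on no array, and the mean over probes gave -0.26.

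The immune subunits were split in plantaris over normal soleus. Psmb9 stood at -1.09 in plantaris and -0.57 in normal soleus (-0.51 ± 0.21), the lowest fold of the 43 genes. Psmb8 stood at -1.05 in plantaris and -0.80 in normal soleus (-0.25 ± 0.21). Psmb10 had the other sign, at 2.54 in plantaris and 2.20 in normal soleus (0.34 ± 0.20). These signs held under all 8 alternatives. Against its constitutive counterpart the fold of Psmb9 was lower by 0.90 ± 0.29, that of Psmb8 was lower by 0.56 ± 0.29, and that of Psmb10 was higher by 0.19 ± 0.29, within the error.

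Of the activators, PA28 was nearly level, with Psme1 at 3.85 in plantaris and 3.89 in normal soleus and Psme2 at 3.64 and 3.58 in the same order. Psme3 stood at -1.88 in plantaris and -1.67 in normal soleus (-0.21 ± 0.21). Psme4 stood at 2.33 in plantaris and 1.72 in normal soleus (0.61 ± 0.20). The spots of Psme4 ran from 2.20 to 2.38 over 9 on plantaris and from 1.64 to 1.83 over 10 on normal soleus, with no overlap. Its second probe, at 1.98 in plantaris and 1.46 in normal soleus, gave 0.53. Both probes of Psme4 thus put plantaris highest and denervated soleus lowest of the 3 arrays.

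All 15 macrophage markers had folds below 0 in plantaris over normal soleus, 8 of them at least 1.5-fold lower, with a median of -0.62 and a summed signal of 42.7 in plantaris and 63.7 in normal soleus. Of 15 interferon and antigen processing genes measured, 5 were at least 1.5-fold lower and 0 higher, with a median of -0.26. Over all genes tested, 12.7% were at least 1.5-fold lower and 13.0% higher. B2m had -0.89, while Tap1 had -0.85 but -0.18 with normexp background. Tap2 had -0.19 and Irf1 -0.20. The other marker lists did not share 1 direction in plantaris over normal soleus. Of 9 fibroblast markers 4 were at least 1.5-fold higher and 0 lower, with a median of 0.08 that was -0.03 with the authors' values, from -0.43 for Lum to 1.59 for Col1a1. Of 4 lymphocyte markers measured, 2 had folds above 0 and 2 below, with a median of -0.20 (0.00 with normexp background). The 6 fat cell and the 8 endothelial markers measured had medians of -0.24 and -0.23, with 1 gene at least 1.5-fold lower in each list. The part of these cells in the folds of Psmb9 and Psmb8 was not tested.

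Among the partners, Nfe2l1 stood at 0.53 in plantaris and 0.06 in normal soleus (0.47), Akirin2, which brings proteasomes into the nucleus, had -0.37, and Nfe2l2 had -0.32, in a list with a median of 0.01. Psmf1 had -0.23, Adrm1 0.21, Usp14 0.10, Pomp 0.05 and Psmg2 0.03. The ubiquitin and E1 and E2 list had a median of 0.26, with 3 of 18 genes at least 1.5-fold higher (13.0% of all genes). These were the E2 enzymes Ube2d1, at 2.67 in plantaris and 0.77 in normal soleus (1.90), Ube2s (0.84) and Ube2g1 (0.77). The fold of Ube2d1 rests on 1 spot per array. Ubb had 0.25 and Uba1 0.09. Of the shuttles, Faf1 had 0.70 and Ubqln4 -0.84 around a median of 0.16, with 0.27 for Ufd1 and 0.02 for Vcp. Trim63 stood at 1.25 in plantaris and 0.44 in normal soleus (0.82), and Fbxo32 at -0.44 in plantaris and -0.38 in normal soleus (-0.06).

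The denervated soleus was also set directly against plantaris, a comparison added after the values were seen. It is built from arrays of both comparisons above, and its arrays lie on different slides. Of 43 genes, 2 were at least 1.5-fold higher in denervated soleus and 8 lower, where 23.8% and 27.2% of 11371 genes tested were. Psmb9 stood at 0.40 in denervated soleus and -1.09 in plantaris, a fold of 1.49 ± 0.20 or 2.81-fold, and Psmd5 was the other one higher (0.59). The lower genes were Psma8, whose levels differed by a log2 bound of -2.05 ± 0.71, Psma3 (-0.98), Psme4 (-0.92), Psmd12 (-0.83), Psmd2 (-0.79), Psma7 (-0.74), Psmb6 (-0.61) and Psmd1 (-0.60).

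Of the 30 core, base and lid genes, 24 had folds below 0 in denervated soleus over plantaris, with a median of -0.25, but that direction turned with the scaling. With the authors' values 11 were below 0 and the median was 0.10, where that of all genes was 0.36, and with quantile normalization 12 were below 0 and the median was 0.07, where that of all genes was 0.08. The 2 PA28 genes had a median of 0.34, and of 0.26 to 0.79 across the alternatives. The fold of Psmb9 exceeded that of Psmb6 by 2.10 ± 0.29 and that of Psmb8 exceeded that of Psmb5 by 0.74 ± 0.29 (0.24 with quantile normalization), whereas the folds of Psmb10 and Psmb7 differed by 0.13 ± 0.29. Of the 43 signs, 19 changed with the processing, at folds of up to 0.58. All 16 measured interferon and antigen processing genes and all 15 macrophage markers had folds above 0, with medians of 0.79 and 0.86. B2m stood highest of the interferon list at 1.67, and the part of these cells was not tested.

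**Figure D4:**
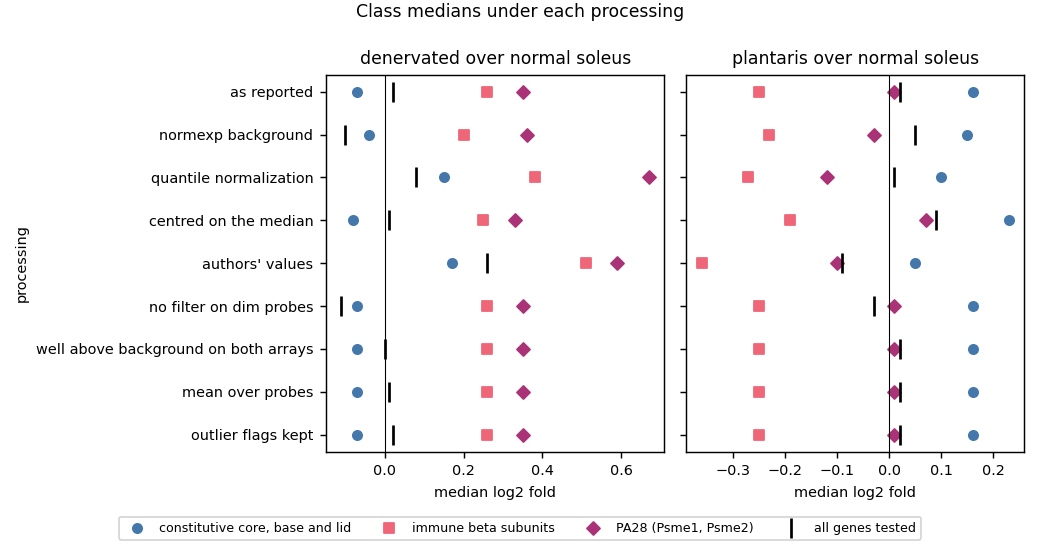
Median log2 fold of the 30 constitutive core, base and lid genes, the 3 immune subunits and the 2 PA28 genes under each processing (rows), in denervated over normal soleus (left) and plantaris over normal soleus (right), with the median of all genes tested as a bar. On the left the constitutive median moves between -0.08 and 0.17 and the immune median between 0.20 and 0.51. On the right the constitutive median stays above 0 in every row and the immune median below 0.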

How the data were processed

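Messenger RNA of denervated soleus, normal plantaris and normal soleus was measured on 1 array each. Per the file headers, Agilent Feature Extraction 10.10.1.1 quantified the arrays, and the processed signal is an intensity, background-subtracted and detrended within the array. Per the file headers, other columns hold flags of 0 or 1 for spots well above background, saturated (0 spots) or outliers. The intensity values deposited by the authors equal the processed signal times 1 factor per array (1.4052 denervated, 1.7997 plantaris, 1.6 normal soleus), of unstated origin.

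Each of 58717 non-control spots was put on the log2 scale and centred on its array's 75th percentile. Outlier-flagged spots (467 to 569 per array) were dropped and repeat spots averaged, and the brightest probe stood for a gene. A probe with 50 percent or more of its spots flagged well above background counted as such. Genes above background on neither array of a comparison were left out, and for those above it on 1 the fold is a bound ("at least") against the larger of the dim signal and the lowest level among probes above background there. Symbols came from RefSeq accessions (18005 of 30364 probes). The array design names an older rat build, so no probe positions are printed.

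With 1 array per group no test was possible: counts use 1.5-fold and 2-fold as rules of size, and the number of arrays limits the precision. The 8 alternatives were normexp with offset 50 (limma 3.58.1, R 4.3.3), quantile normalization, centring on the median, the authors' values, no filter or a stricter one on dim probes, the mean over probes, and outliers kept. The files hold no mean spot signal, so normexp used the median signal. Other steps used Python 3.11.15 with pandas 2.3.3 and numpy 2.4.6, tested on simulated data. The members and lists were chosen with earlier results of these data known. Named members are the immune subunits and their counterparts, the activators, every gene at least 1.5-fold apart and the extremes of each class, and of each partner list the 3 largest folds plus fixed genes. Some genes of the partner and marker lists are not reported here by name.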

Additional observations from a re-analysis of the deposited data

How the results depend on the processing

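Each array is 1 sample, so no replicate could be left out. Depth in the sense of signal over background limits Psma8 and Irf8, but other dim genes also had smaller folds with normexp background. In denervated over normal soleus the macrophage marker Mrc1 had 0.63 as reported and 0.09 with normexp background. The interferon list genes Ifit3 and Irf9 had 0.62 and 0.65 as reported and 0.22 and 0.31 with normexp background. No paired analysis was possible because each group has 1 array and no test was run. Of 42 member folds in denervated over normal soleus, 26 kept their sign in all alternatives, and those that did not were at most 0.29 in size. In plantaris over normal soleus 29 of 43 kept it, and the others, apart from Psma8, were at most 0.16. The authors' values shift all genes, to a median of 0.26 in denervated and -0.09 in plantaris over normal soleus. In denervated over normal soleus, the authors' values gave a median of 0.23 for the members, 0.51 for immune subunits, 0.57 for activators, 0.17 for the constitutive core and 0.15 for base and lid, with 5 genes at least 1.5-fold higher, 0 lower and 1 at least 2-fold higher. Quantile normalization gave 0.24 for the constitutive core and 0.12 for base and lid, with 5 genes higher and 0 lower, and normexp background gave 0 lower. In plantaris over normal soleus, the number at least 1.5-fold higher was 1 with normexp background or the authors' values and 2 with quantile normalization or the mean over probes. The number lower was 1 with the authors' values, and the number 2-fold higher was 0 with normexp background, the filter on both arrays or the mean over probes. Among the named folds of at least 1.5-fold in these comparisons, the sign turned for Irf8 in denervated over normal soleus (-0.05 with normexp background), and in plantaris over normal soleus for Psma8 (-0.26, mean over probes) and Mrc1, which was at 0.0 with normexp background. The cause was not tested.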
